A study of Homo sapiens with 6 samples.

Results

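Laminin chain genes were examined in the RNA-Seq data of MRC5 lung fibroblasts. The 9 genes were *LAMA1*, *LAMA2*, *LAMA3*, *LAMA4* and *LAMA5* (alpha chains), *LAMB1*, *LAMB2* and *LAMB3* (beta chains) and *LAMC1* (gamma chain), found by their GENCODE symbols among the 58676 gene identifiers of the count table. The study asked how fibroblasts respond to conditioned media (CM) from epithelial cells in which RAS is switched on. MRC5 cells, an established line of human fetal lung fibroblasts, were kept for 24 h in CM from ATIIER:KRASV12 cells, a human alveolar type II (ATII) line whose KRASV12 fusion is activated by 4-hydroxytamoxifen (4-OHT). In the control group (control ATII CM, 3 libraries) the CM came from ATIIER:KRASV12 cells without 4-OHT. In the 4-OHT group (4-OHT ATII CM, 3 libraries) it came from the same cells after 24 h with 4-OHT. These are called control libraries and 4-OHT libraries. Effects of 4-OHT carried over in the medium and of factors that the ATII cells released cannot be told apart with these groups. The labels do not say whether replicate libraries came from separate cultures, so p values measure the spread between libraries, which may be technical.

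Laminins are large glycoproteins of basement membranes, each built from an alpha, a beta and a gamma chain that join in a long coiled coil. Cells bind them through integrins and dystroglycan, mostly at the end of the alpha chain, while the gamma1 chain links them to nidogen and so to the collagen IV network. The alpha4 chain, with beta1 and gamma1, is typical of mesenchymal and vascular cells, alpha5 of mature epithelial basement membranes, alpha1 of the embryo, alpha2 of muscle, and alpha3 with beta3 of epithelial anchorage.

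Libraries held 17691849 to 26389449 counts. The 19072 genes whose counts over the 6 libraries came to 10 or more were compared between groups with edgeR's quasi-likelihood test, and genes with a Benjamini-Hochberg adjusted p below 0.05 were taken as differentially expressed genes (DEGs). Of the genes tested, 1090 (5.72%) were DEGs, 563 (2.95%) higher and 527 (2.76%) lower in 4-OHT ATII CM. Levels are in CPM (counts at a fixed library size after TMM normalization), or in CPM per kb of exon where genes are compared with each other. Fold changes are 4-OHT libraries over control libraries, on a log2 scale, with the standard error (SE). Fibroblast genes were abundant, with *COL1A1* at 17731 ± 947 CPM and *COL1A2* at 13170 ± 809 CPM (SD, n = 3 each) in control ATII CM.

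The promoters of the 3 most abundant chains are shown because the ratios of these chains carry much of what follows. RefSeq windows on GRCh38.p14, from 250 bases before to 50 bases after a start site, were found for 8 of the 9 genes and not for *LAMA1*. Capitals mark GC boxes, the only one of 5 motifs that was matched in these 3 windows, on the minus strand for *LAMB1* (chr7:108003112-108003411), the plus strand for *LAMC1* (chr1:183023170-183023469) and the minus strand for *LAMA4* (chr6:112254518-112254817).
LAMB1 promoter: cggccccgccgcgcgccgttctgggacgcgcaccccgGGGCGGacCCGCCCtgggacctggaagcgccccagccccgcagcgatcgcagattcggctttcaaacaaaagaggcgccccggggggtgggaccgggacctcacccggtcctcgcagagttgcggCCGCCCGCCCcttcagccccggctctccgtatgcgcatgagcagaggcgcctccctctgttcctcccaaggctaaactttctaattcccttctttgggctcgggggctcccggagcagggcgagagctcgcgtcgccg
LAMC1 promoter: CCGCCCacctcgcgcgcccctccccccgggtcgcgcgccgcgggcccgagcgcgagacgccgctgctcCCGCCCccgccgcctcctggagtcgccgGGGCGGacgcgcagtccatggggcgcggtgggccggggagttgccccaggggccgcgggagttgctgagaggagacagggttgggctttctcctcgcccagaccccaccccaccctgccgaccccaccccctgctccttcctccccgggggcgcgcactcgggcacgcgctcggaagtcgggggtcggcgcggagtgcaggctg
LAMA4 promoter: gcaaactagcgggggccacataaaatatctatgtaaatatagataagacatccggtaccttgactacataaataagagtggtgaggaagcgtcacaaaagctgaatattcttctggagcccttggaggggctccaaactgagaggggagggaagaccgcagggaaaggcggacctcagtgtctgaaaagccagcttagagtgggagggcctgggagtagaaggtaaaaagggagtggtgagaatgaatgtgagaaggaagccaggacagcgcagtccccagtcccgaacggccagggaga

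The *LAMB1* window held 4 matches to the GC box (GGGCGG, either strand), the *LAMC1* window 3 and the *LAMA4* window 0, and 45% of all 35116 RefSeq windows held at least 1. G and C made up 71% of the *LAMB1* window, 79% of the *LAMC1* window and 51.3% of the *LAMA4* window. *LAMB1* and *LAMC1* thus have GC-rich start regions, and that of *LAMA4* is closer to even. The AP-1 site (TGANTCA, in 7.71% of all windows), the TATA box (TATAAA, 11.5%), the CCAAT box (CCAAT, 34.6%) and the palindromic SMAD box (GTCTAGAC, 0.202%), searched on both strands, were not matched in the 3 windows. Among the other chains, AP-1 letters were matched in the window of *LAMA3* and in 1 of the 3 windows of *LAMB3*.

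Of the 9 laminin chain genes, all 9 were tested, 1 was a DEG with a higher level in 4-OHT ATII CM (*LAMB1*), 1 was a DEG with a lower level (*LAMA1*), and 7 were not called. The groups did not overlap in 4 of the 9, *LAMB1*, *LAMA4* and *LAMA3* upward and *LAMA1* downward, beside 22.1% of all genes tested (11.7% upward and 10.4% downward). The median log2 fold change of the 9 genes was -0.06, and that of all genes was -0.0020. Calls in both directions thus stood beside a family median close to 0. Across 14 alternative analyses, the share of all genes called was 4.35% with DESeq2, 5.94% with limma-voom, 5.76% with RLE and 5.74% with upper-quartile normalization, 5.77% with no filter on low counts, 8.03% with the stricter filterByExpr and 5.16% with the replicate number as a block. It was 6.92% with a correction for GC content and length. It was 4.31%, 8.19% and 3.58% without control replicate 1, 2 or 3, and 4.23%, 2.88% and 3.33% without 4-OHT replicate 1, 2 or 3.

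Per length, *LAMB1* was the most abundant chain, at 244 CPM per kb over the 6 libraries, 2.19 times the 111 CPM per kb of *LAMC1*. *LAMC1* was followed by *LAMA4* at 57.4 and *LAMB2* at 49.6 CPM per kb. The ranges of *LAMA4* and *LAMB2* over the 6 libraries overlapped, although *LAMA4* was above *LAMB2* in each single library. *LAMA5* (7.67 CPM per kb), *LAMA2* (3.43) and *LAMA1* (0.950) came next with ranges apart from each other, and *LAMB3* (0.489) and *LAMA3* (0.315) came last with overlapping ranges. The chains of the alpha4, beta1, gamma1 trimer thus held the first 3 places, and the epithelial alpha3 and beta3 chains the last. By raw level, *LAMB1* ranked 35 among the 19072 genes tested, *LAMC1* 118 and *LAMA4* 192. The lengths are of merged exons, and with the longest GENCODE transcript instead the order of the 9 genes was the same, with *LAMA4* at 91.9 and *LAMB2* at 59.9 CPM per kb.

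**Figure D1:**
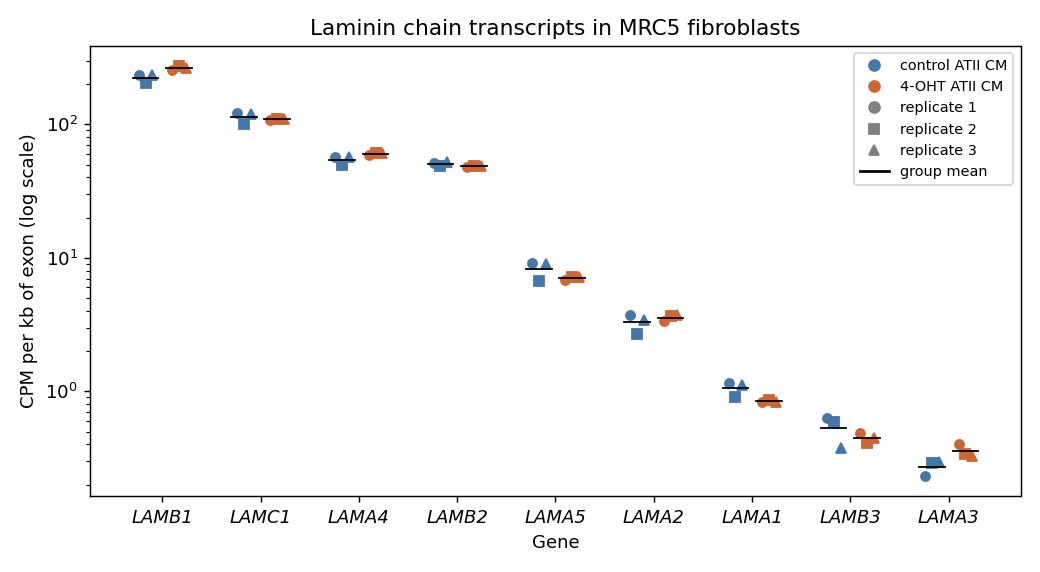
Level of each laminin chain transcript in CPM per kb of merged exon (y, log scale) for the 9 genes (x), with 1 point per library (blue, control ATII CM; orange, 4-OHT ATII CM; shapes, replicates) and a line at each group mean. *LAMB1* lies above all other chains in every library, and control ATII CM replicate 2 is the lowest control point for 7 of the 9 genes.

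*LAMB1* (ENSG00000091136, chromosome 7 of GRCh38, 107923799 to 108003255, minus strand) encodes the beta1 chain, the widespread beta chain of mesenchymal laminins. Its level was 1892, 1672 and 1890 CPM in replicates 1 to 3 of control ATII CM and 2087, 2211 and 2165 CPM in those of 4-OHT ATII CM. All 4-OHT libraries were above all control libraries. The means were 1818 ± 127 CPM and 2155 ± 62.5 CPM (SD, n = 3 each), an 18.5% higher level with log2 fold change 0.24 (SE 0.0401, adjusted p = 0.00153). *LAMB1* was a DEG in all 14 alternative analyses, with log2 fold changes of 0.19 to 0.27. Counts behind these values were 29853 to 56910 per library. Of its exon bases, 70 (0.860%) are shared with *DLD* and 221 (2.71%) with the unnamed ENSG00000273055, both on the opposite strand, and the latter had 44 to 123 counts per library. The sources used here do not say whether counting used strand.

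*LAMB2* (ENSG00000172037, chromosome 3, 49121114 to 49133118, minus strand) encodes the beta2 chain, known from neuromuscular synapses, kidney and vessels. Its level was 355, 336 and 358 CPM in control libraries and 327, 337 and 334 CPM in 4-OHT libraries. The groups overlapped through control replicate 2, and the log2 fold change was -0.07 (SE 0.0337, adjusted p = 0.287). Without control replicate 2 it was -0.10 (SE 0.0280, adjusted p = 0.0342). *LAMB3* (ENSG00000196878, chromosome 1, 209614870 to 209652466), the beta chain of epithelial anchoring laminin, had only 40 to 63 counts per library, at 2.95, 2.74 and 1.77 CPM in control libraries and 2.28, 1.92 and 2.09 CPM in 4-OHT libraries. Its log2 fold change was -0.24 with an SE of 0.205 (adjusted p = 0.624), and the control libraries alone spread over more than the difference between the groups.

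*LAMC1* (ENSG00000135862, chromosome 1, 183023460 to 183145592, plus strand) encodes gamma1, the partner of both beta1 and beta2 in most laminins. Its level was 1017, 851 and 1003 CPM in control libraries and 911, 916 and 921 CPM in 4-OHT libraries. Control replicates 1 and 3 were above every 4-OHT library and control replicate 2 was below them all. With all 6 libraries the log2 fold change was -0.06 (SE 0.0491, adjusted p = 0.576), and without control replicate 2 it was -0.14 (SE 0.0232, adjusted p = 0.000589). The fold change of *LAMC1* was below 0 in both analyses and that of *LAMB1* above 0. Outside the 9 genes, *LAMB4* had 23 to 59 counts per library with log2 fold change 0.45 (adjusted p = 0.413), and *LAMC3* had 2 counts in all and was not tested.

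Among the alpha chains, *LAMA4* (ENSG00000112769, chromosome 6, 112108760 to 112254939, minus strand) was the most abundant. This chain has a short amino-terminal arm and is typical of mesenchymal and endothelial basement membranes. Its level was 657, 577 and 656 CPM in control libraries and 679, 703 and 711 CPM in 4-OHT libraries. All 4-OHT libraries were above all control libraries, with means of 630.1 ± 45.9 CPM and 698 ± 16.5 CPM (SD, n = 3 each). The log2 fold change was 0.15 (SE 0.0427), and its adjusted p of 0.0581 missed the threshold. *LAMA4* was a DEG in 9 of 14 alternatives, among them DESeq2 (adjusted p = 0.0263), the correction for GC content and gene length (adjusted p = 0.00205) and the fit without control replicate 2, where the log2 fold change was 0.09 (SE 0.0264, adjusted p = 0.0471). It was not called with filterByExpr or when control replicate 3 or any 4-OHT library was left out, and the adjusted p lay between 0.000187 and 0.217 in the 14 alternatives.

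*LAMA1* (ENSG00000101680, chromosome 18, 6941744 to 7117814, minus strand) encodes the alpha1 chain, prominent in embryonic basement membranes. Its level was 18.2, 14.3 and 17.6 CPM in control libraries and 13.3, 13.7 and 13.3 CPM in 4-OHT libraries. The groups did not overlap, but control replicate 2 was closer to the 4-OHT libraries than to the other controls. The log2 fold change was -0.32 (SE 0.0875, adjusted p = 0.0424), a level that fell by 19.9%. The call held in 7 of 14 alternatives. Among the analyses that lost it were DESeq2 (adjusted p = 0.0691) and each one that left out a single library other than control replicate 2 (0.106 to 0.177). Without control replicate 2 the log2 fold change was -0.41 (adjusted p = 0.0017). Counts were 255 to 399 per library, and 1641 of its exon bases (10.3%) are shared with ENSG00000265069, which had 0 counts.

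*LAMA5* (ENSG00000130702, chromosome 20, 62307955 to 62367312, minus strand), which encodes the alpha5 chain of mature lung basement membranes, had 130, 96.5 and 128 CPM in control ATII CM. In 4-OHT ATII CM it had 98.2, 102 and 103 CPM. Control replicates 1 and 3 were above every 4-OHT library, and control replicate 2 was below them. The log2 fold change was -0.22 (SE 0.0776, adjusted p = 0.123) with all libraries, and -0.34 (SE 0.0352, adjusted p = 3.45e-06) without control replicate 2. *LAMA5* was called in 2 of 14 alternatives, without that library and with no filter on low counts (adjusted p = 1.8e-05). Its exons share 244 bases (1.71%) with *ADRM1* on the opposite strand, whose log2 fold change was -0.02 (adjusted p = 0.840).

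*LAMA2* (ENSG00000196569, chromosome 6, 128883141 to 129516569, plus strand), the alpha chain of muscle, had 38.8, 28.1 and 35.4 CPM in control libraries and 34.6, 37.7 and 38.5 CPM in 4-OHT libraries. Values of both groups overlapped, and a log2 fold change of 0.11 (SE 0.0840, adjusted p = 0.567) went to -0.0023 without control replicate 2. *LAMA3* (ENSG00000053747, chromosome 18, 23689443 to 23956222, plus strand), the epithelial alpha chain, rested on 73 to 129 counts per library. Its level was 3.42, 4.26 and 4.32 CPM in control libraries and 5.89, 5.01 and 4.83 CPM in 4-OHT libraries. The groups did not overlap, yet the log2 fold change of 0.39 (SE 0.139) was not called (adjusted p = 0.135, from 0.0856 to 0.385 over the alternatives). Of 15 epithelial markers, 8 were tested and none was called by edgeR, DESeq2 or limma-voom (0 at an unadjusted edgeR p below 0.05), with *KRT18* and *KRT8*, the most abundant, at log2 fold changes of -0.05 and 0.06. The 15 markers' summed level was 94.1 to 100.2 CPM in control libraries and 92.5 to 97.7 CPM in 4-OHT libraries. *KRT5*, *KRT14*, *ESRP1* and *GRHL2* had no count in any library, *CDH1* had 4 counts in all, and the surfactant genes *SFTPB* and *SFTPC* 1 each, so these epithelial transcripts were at or near 0 in both groups, while *KRT18* (53.5 CPM in control libraries) and *KRT8* (32.5 CPM) made up most of the sum.

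**Figure D2:**
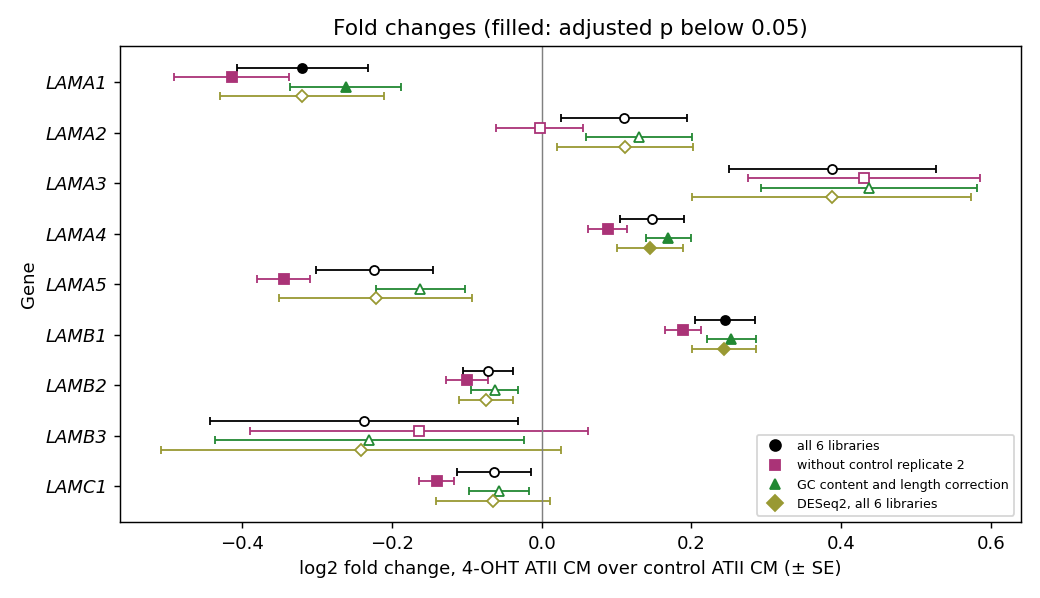
Log2 fold change of each laminin chain gene (x, with its SE) from 4 analyses (shapes and colours), where filled points have an adjusted p below 0.05. *LAMB1* is filled at 0.19 to 0.25 in all 4, and *LAMA5*, *LAMB2* and *LAMC1* are filled below 0 only without control replicate 2.

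Control ATII CM replicate 2 was the library with the fewest counts and stood apart from the rest on the second principal component (22.5% of the variance). It was the lowest control library for 7 of the 9 laminin chain genes, all but *LAMA3* and *LAMB3*. Its distance from the mean of control replicates 1 and 3 went with exon length. The median difference was 0.0390 (log2 CPM) over 1414 genes with exons under 2000 bases and -0.129 over 865 genes of at least 12000 bases, among genes with a mean of at least 1 CPM. Most laminin chain genes have long exons in sum, 4688 to 15872 bases, and 6 of the 9 lay below the lower quartile of genes in their length class, *LAMA5* (-0.41), *LAMA2* (-0.40), *LAMA1* (-0.33), *LAMC1* (-0.25), *LAMA4* (-0.19) and *LAMB1* (-0.18). Without this library 6 of the 9 chain genes were DEGs, *LAMB1* and *LAMA4* higher and *LAMA1*, *LAMA5*, *LAMB2* and *LAMC1* lower, where 8.19% of all genes were DEGs. With a correction for GC content and length and all 6 libraries, 3 were DEGs (*LAMB1*, *LAMA4* and *LAMA1*), beside 6.92% of all genes.

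**Figure D3:**
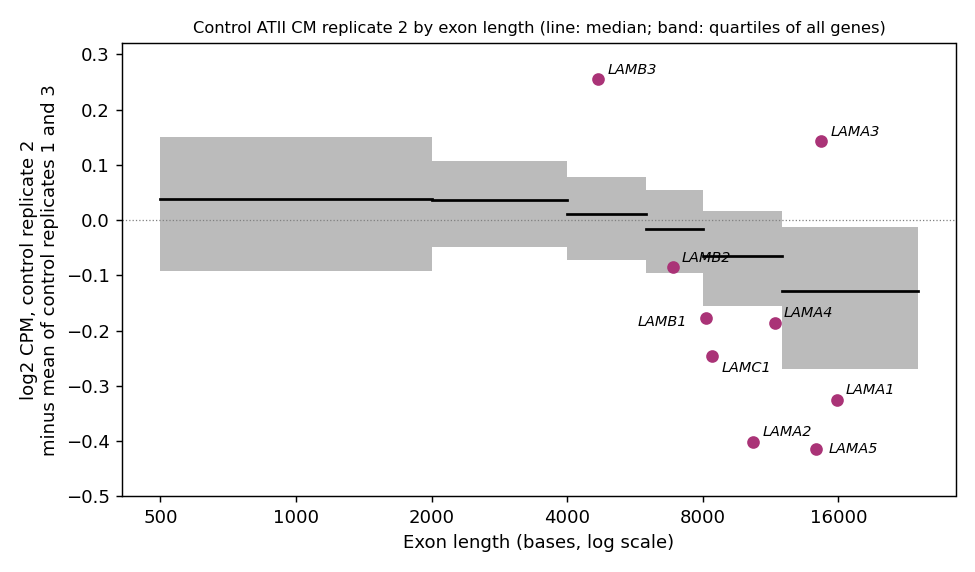
Difference in log2 CPM between control ATII CM replicate 2 and the mean of control replicates 1 and 3 (y) against exon length in bases (x, log scale), as the median (line) and quartiles (band) of all genes in 6 length classes and as points for the 9 laminin chain genes. The outer classes take in all shorter and longer genes. The median falls from 0.0390 to -0.129 with length, and 7 of the 9 chain genes lie below 0.

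Ratios of chains within a library do not depend on how libraries are scaled. They need not cancel a trend with exon length such as that of control replicate 2. They were not recomputed with the GC content and length correction. For 8 of 9 such ratios and shares the groups did not overlap, control replicate 2 included. These quantities share chains and restate each other in part, since the *LAMB1* and *LAMB2* shares sum to nearly all of the beta chains and *LAMB1* weighs heavily in the beta chain sum, so 8 does not count separate results. No share of non-overlap was computed for ratios of other genes, so whether 8 of 9 is unusual was not tested. The *LAMB1* to *LAMC1* ratio (both in CPM per kb) was 1.92, 2.03 and 1.95 in control libraries and 2.37, 2.49 and 2.43 in 4-OHT libraries. Fibroblasts in 4-OHT ATII CM thus held more *LAMB1* per *LAMC1* transcript in every library, with means of 1.97 ± 0.0555 and 2.43 ± 0.0638 (SD, n = 3 each). *LAMB1* made up 81.6%, 80.6% and 81.6% of the beta chain level in control libraries and 84.2%, 84.6% and 84.4% in 4-OHT libraries, with *LAMB2* giving nearly all of the remainder. The beta chains together were 2.42 ± 0.0860 times the gamma1 level in control libraries and 2.88 ± 0.0688 times in 4-OHT libraries (SD, n = 3 each).

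The alpha chains together were 0.587, 0.598 and 0.591 times the *LAMC1* level in control libraries and 0.647, 0.668 and 0.671 times in 4-OHT libraries. The size of these ratios depends on the length used. With merged exons *LAMA4* was at 57.4 CPM per kb and *LAMC1* at 111 over the 6 libraries. With the longest transcript they were at 91.9 and 118 CPM per kb. Within the alpha chains, the share of *LAMA4* was 80.9% ± 1.27 in control libraries and 83.6% ± 0.0937 in 4-OHT libraries (SD, n = 3 each). The share of *LAMA5* was 12.8%, 11.2% and 12.7% in control libraries and 9.80%, 9.85% and 9.83% in 4-OHT libraries, and that of *LAMA1* was 1.56% ± 0.0669 and 1.17% ± 0.0286 (SD, n = 3 each). The mix of alpha transcripts in 4-OHT ATII CM therefore held relatively more *LAMA4* and less *LAMA5* and *LAMA1*, while the share of *LAMA2*, 4.87% ± 0.401 and 4.94% ± 0.155 (SD, n = 3 each), overlapped between groups. Of 9 ratios and shares compared, 8 did not overlap, each at p = 0.1 (exact permutation test, two-sided), the smallest that 3 libraries against 3 allow (0.1125 after Benjamini-Hochberg adjustment over the 9), so none could pass a threshold of 0.05.

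**Figure D4:**
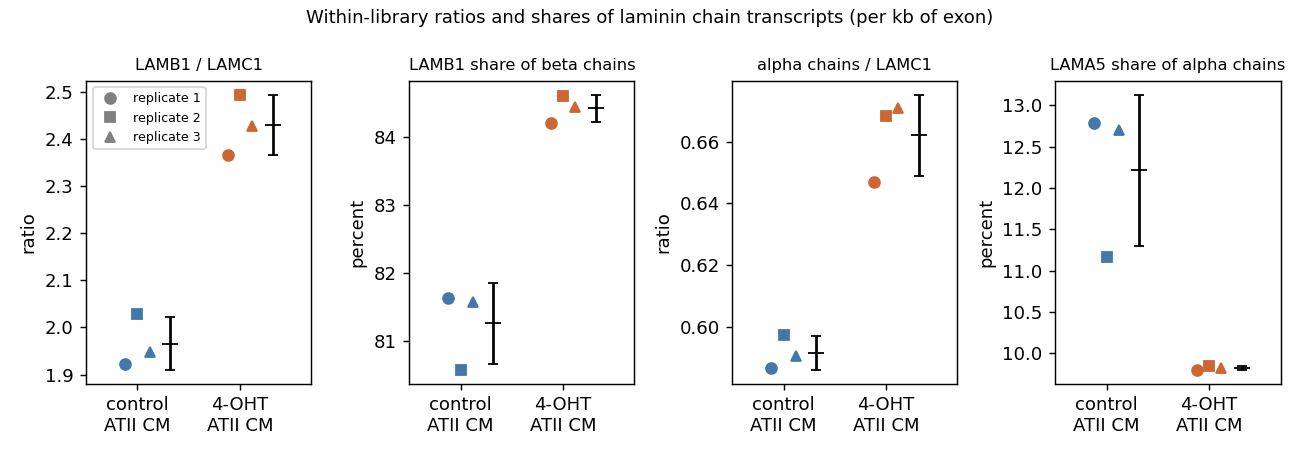
Ratios and shares of laminin chain transcripts in each library, computed from CPM per kb, with points for replicates (blue, control ATII CM; orange, 4-OHT ATII CM) and dashes with error bars for the group mean ± SD (n = 3). Each y axis starts above 0. The groups are apart in all 4 panels, with the *LAMB1* to *LAMC1* ratio at 1.92 to 2.03 in control libraries and 2.37 to 2.49 in 4-OHT libraries.

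Laminin receptors were examined next, as 13 genes of which 1 rose, 2 fell and 10 were not called (median log2 fold change -0.04). The pair that fell encodes integrin alpha subunits, and the other 3 integrin alpha genes of the list, *ITGA1*, *ITGA2* and *ITGA7*, overlapped between groups and were not called by edgeR (adjusted p = 0.355, 0.107 and 0.379). *ITGA2* was called lower in 3 of 14 alternatives, with adjusted p = 0.00158 without control replicate 2, and *ITGA1* was called in 1. *ITGA6* (integrin alpha6) was at 29.5, 29.2 and 29.2 CPM in control libraries and 21.2, 18.8 and 20.2 CPM in 4-OHT libraries, log2 fold change -0.55 (SE 0.0597, adjusted p = 5.16e-05). *ITGA3* (integrin alpha3) was at 246, 256 and 256 CPM in control libraries and 199, 190 and 192 CPM in 4-OHT libraries, log2 fold change -0.38 (SE 0.0346, adjusted p = 1.13e-05). The groups were well apart for both, the direction was opposite to that of *LAMB1*, and both were DEGs in all 14 alternatives. *SDC2*, a heparan sulfate proteoglycan of the cell surface, rose from 115 ± 2.57 to 132 ± 4.57 CPM (SD, n = 3 each), log2 fold change 0.20 (SE 0.0385, adjusted p = 0.00592, and 0.0517 without control replicate 3).

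The common partner subunit *ITGB1*, the most abundant receptor gene per length, was at 2673 ± 22.9 CPM in control libraries and 2794 ± 57.0 CPM in 4-OHT libraries (SD, n = 3 each), with log2 fold change 0.06 (adjusted p = 0.164). *SDC4*, next in level per length, and the dystroglycan gene *DAG1* had log2 fold changes of -0.01 and -0.04 and were not called (adjusted p = 0.915 and 0.583). *ITGB4*, whose product pairs with integrin alpha6 in epithelial hemidesmosomes, was at 0.652 CPM in control libraries and 0.685 CPM in 4-OHT libraries. None of the 12 tested genes that build the laminin-binding glycan of dystroglycan was called by edgeR, DESeq2 or limma-voom (2 at an unadjusted edgeR p below 0.05), with *B4GAT1* and *POMGNT1* the most abundant per length at log2 fold changes of 0.14 and -0.05.

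Of 16 genes for other basement membrane proteins, 3 rose, 1 fell and 12 were not called (median log2 fold change 0.03). The number called higher was 6 with the GC content and length correction and 5 with no filter on low counts, and the number called lower was 0 with DESeq2 and 2 with no filter or without control replicate 2. *FBLN1* (fibulin-1, a laminin and nidogen binder) rose from 477 ± 4.46 to 558 ± 6.92 CPM (SD, n = 3 each), log2 fold change 0.23 (SE 0.0289, adjusted p = 0.000216). The collagen genes *COL4A6* and *COL18A1* rose by 0.25 and 0.18 (log2 fold changes, adjusted p = 0.00465 and 0.00348). *HSPG2*, which encodes the heparan sulfate proteoglycan perlecan, fell, with 264, 187 and 259 CPM in control libraries and 177, 172 and 172 CPM in 4-OHT libraries, log2 fold change -0.45 (SE 0.0867, adjusted p = 0.00496, and 0.0529 with DESeq2). As for *LAMA1*, control replicate 2 lay nearest to the 4-OHT libraries. *NID1*, the gene of nidogen-1 that joins gamma1 to collagen IV, had 496 ± 26.6 and 538 ± 7.62 CPM (SD, n = 3 each) and was not called by edgeR (log2 fold change 0.12, adjusted p = 0.0769), but was called in 3 of 14 alternatives, limma-voom among them (adjusted p = 0.0451). Without control replicate 2 its log2 fold change was 0.08 (adjusted p = 0.092). *SPARC* and *COL4A1*, the most abundant per length, had log2 fold changes of -0.02 and 0.02 and were not called by edgeR (adjusted p = 0.711 and 0.756), while *COL4A1* was called in 1 of 14 alternatives, the GC content and length correction (log2 fold change 0.08, adjusted p = 0.0468).

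**Figure D5:**
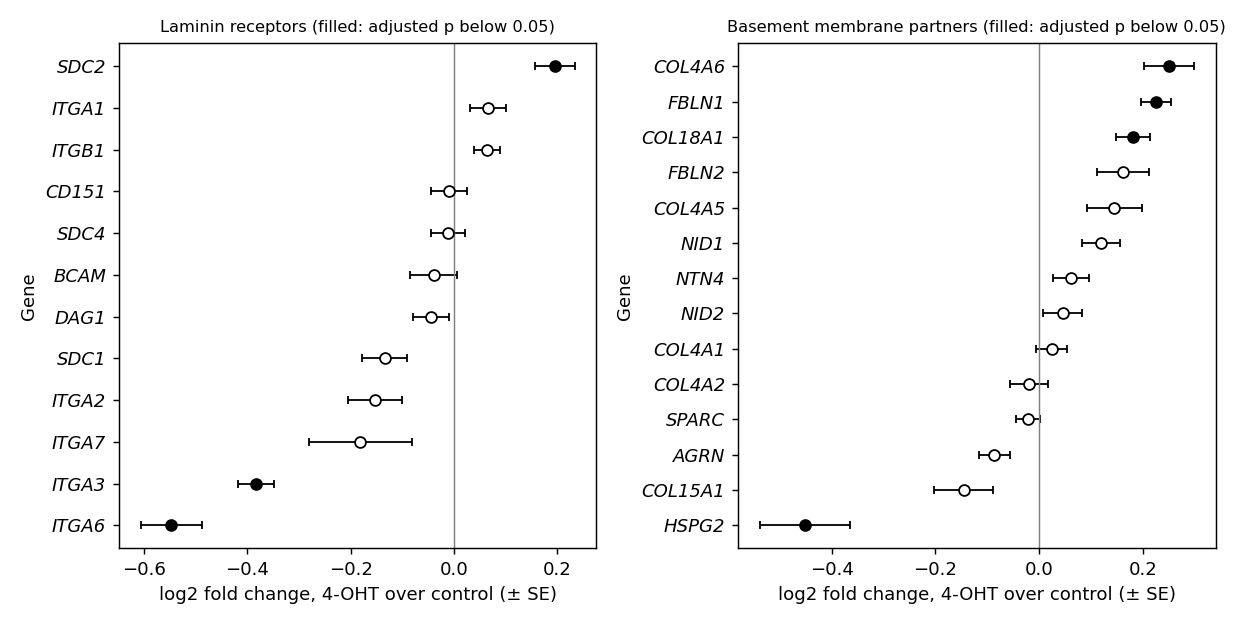
Log2 fold change with its SE (x) for laminin receptor genes (left) and other basement membrane genes (right) with at least 1000 counts in all, where filled points have an adjusted p below 0.05. *ITGA6* and *ITGA3* lie lowest among the receptors at -0.55 and -0.38, and *HSPG2* lies lowest among the basement membrane genes at -0.45.

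None of 10 genes for chaperones and export from the endoplasmic reticulum was called by edgeR, DESeq2 or limma-voom (1 at an unadjusted edgeR p below 0.05), and the most abundant per length, *CALR* and *HSPA5*, had log2 fold changes of -0.0037 and -0.06. Of 9 proteases that can cut laminins or belong to the plasminogen system, 8 were tested and *MMP2* alone was a DEG, from 1413 ± 24.6 to 1552 ± 6.53 CPM (SD, n = 3 each), log2 fold change 0.14 (SE 0.0256, adjusted p = 0.00454, and 0.0501 without 4-OHT replicate 3). *MMP14*, which encodes an activator of proMMP2, was not called (log2 fold change 0.08, adjusted p = 0.123).

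Other cell features moved with the groups as well, and their part in the laminin results was not tested. All 6 proliferation markers fell (*MKI67*, *TOP2A*, *CCNB1*, *CDK1*, *BUB1* and *AURKA*), with a summed level of 244 to 265 CPM in control libraries and 162 to 180.5 CPM in 4-OHT libraries. Of 10 fibroblast markers, *COL3A1*, *DCN*, *LUM* and *PDGFRA* rose, *VIM* fell (a DEG in 8 of 14 alternatives) and 5 were not called by edgeR, with a summed level of 42441 to 46131 CPM in control libraries and 44431 to 46154 CPM in 4-OHT libraries. Of the 5, *COL1A1* was called lower in 4 of 14 alternatives (adjusted p = 0.0457 with limma-voom and 1.8e-05 without control replicate 2) and *COL1A2* in 1 (adjusted p = 0.0411 without control replicate 2). The endothelial markers *PECAM1* and *CDH5* had no count, while *TEK*, in the same list, rose (log2 fold change 0.37, adjusted p = 0.000162), and gave nearly all of the summed level of the 6 markers, 121 to 138 CPM and 163 to 172 CPM. The other endothelial markers tested, *VWF* and *CLDN5*, had 50 and 11 counts in all, with log2 fold changes of -0.25 and -0.49, and were not called by edgeR (adjusted p = 0.836 and 0.869). Of 6 smooth muscle and pericyte markers, 5 were tested, 4 of them at an unadjusted edgeR p below 0.05. *RGS5* rose (log2 fold change 0.52, adjusted p = 0.00238) and the others, *ACTA2* and *MCAM* the most abundant, were not called. *CNN1* went the other way without a call, with every 4-OHT library below every control library (94.9 ± 3.44 and 87.0 ± 0.202 CPM, SD, n = 3 each). Its log2 fold change was -0.12 (adjusted p = 0.0765). The sums of the 6 markers were 792 to 813 CPM in control libraries and 827 to 861 CPM in 4-OHT libraries. In bulk RNA, fewer cells of a type and less RNA per cell cannot be told apart.

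The genes whose log2 CPM over the 6 libraries was most like that of *LAMB1*, among 13018 with a mean of at least 1 CPM, were *PDGFRA* (Pearson r = 0.998), *SCUBE3* (0.997) and *C1RL* (0.995). *PDGFRA*, the PDGF receptor alpha gene of fibroblasts, had log2 fold change 0.22 (adjusted p = 0.00343), near that of *LAMB1*. Those most like *LAMA1* were *NAV1* (0.999), *KMT2D* (0.996) and *ITGA11* (0.996). Their log2 fold changes were -0.30, -0.52 and -0.09, and *ITGA11* was not a DEG (edgeR adjusted p = 0.178). These correlations describe 6 points that share the group difference and the low control replicate 2, over many genes searched.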

How the data were processed

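Per the labels and the paper's methods, polyA RNA was sequenced in 6 libraries, and the authors used Trim Galore for trimming, HISAT2 2.1.0 for mapping to GRCh38 and featureCounts 1.6.5 for counting per gene. The deposited values are raw counts per gene, 1 column per library, beside each gene's merged exon length. The annotation release, strand setting and handling of multimapping reads are not given in the sources used here. Counts of 45 identifiers listed on both X and Y were added. Of the 19072 genes tested, 18962 had a symbol in GENCODE release 44. Genes whose counts came to 10 or more over all libraries entered edgeR 4.0.16 (R 4.3.3, TMM normalization, quasi-likelihood test, group as the only term, Benjamini-Hochberg over all genes tested). Standard errors were derived from the log2 fold change and its F statistic. Library totals of 17691849 to 26389449 counts leave little counting error for abundant chains, and variation between replicates beyond it was 4.36% (square root of the common dispersion). Replicates differed by more than counting noise (chi-square per degree of freedom 2.04 to 5.56), so none was a copy.

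Alternatives were DESeq2 1.42.0, limma-voom (limma 3.58.1), RLE and upper-quartile normalization, no filter on low counts, filterByExpr, the replicate number as a block, an offset for GC content and length (splines with 5 degrees of freedom per library, using genes whose mean log2 CPM exceeded 3, GC values for 99.4% of genes) and each library left out. The tests were tested on simulated counts. Ratios were compared by exact permutation tests (SciPy 1.17.1). Named genes were the 9 members, *LAMB4* and *LAMC3*, list genes that were DEGs or among the 2 most abundant per length in a list, overlapping genes, and the 3 genes most like *LAMB1* and *LAMA1*. *DAG1*, *ITGA1*, *ITGA2*, *ITGA7*, *ITGB4*, *NID1*, *CNN1* and the epithelial and endothelial markers near 0 were named after their values were seen. The members and lists were chosen with earlier results of these data known. Promoters came from RefSeq tables. Results of some genes under this rule are not reported here.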

Additional observations from a re-analysis of the deposited data

How the results depend on the processing

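Leaving out single libraries gave between 533 DEGs (4-OHT replicate 2 left out) and 1530 DEGs (control replicate 2 left out), beside 1090 with all 6, and gave 615 for 4-OHT replicate 3 and 663 for control replicate 3. The number of laminin chain genes called higher was 1 or 2 in all alternatives. It was 2, *LAMB1* and *LAMA4*, with DESeq2, limma-voom, RLE and upper-quartile normalization, no filter, the replicate block, the GC content and length correction, and without control replicates 1 or 2. The number called lower was 1 (*LAMA1*) with all libraries, 0 with DESeq2 and the replicate block, 2 with no filter (*LAMA1* and *LAMA5*), and 0 to 4 with 1 library left out, 4 being without control replicate 2 and 0 without any other library. The only reversed sign was that of *LAMA2*, -0.0023 without control replicate 2, the lowest of its log2 fold changes with 1 library left out, the highest being 0.21 without control replicate 1. The cause of these changes was not tested.

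Replicate numbers gave only weak pairing, since deviations of same-numbered libraries from their group means correlated at 0.0631, 0.0256 and 0.0393 over 13051 genes, although each library correlated best with its own number. The replicate block gave 985 DEGs, an adjusted p of 0.0668 for *LAMA1* and one of 0.0493 for *LAMA4*, and changed no other laminin chain call (edgeR). The rise of the alpha chain to *LAMC1* ratio from control to 4-OHT ATII CM was 0.0703, and 0.106 with the longest transcript length and 0.0935 with counts not divided by length. Counts of 23 to 129 per library limit what can be said of *LAMA3*, *LAMB3* and *LAMB4*.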
